A study of Mus musculus with 4 samples.

Results

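Gene deserts are long stretches of the genome without annotated genes. Here they were the intervals of 500 kb or more between neighbouring genes of any type (GENCODE vM1, mouse build mm9) on chromosomes 1 to 19, less 20 kb at each end and less runs of undetermined bases. Of 25816 intervals between genes, 452 met this length and spanned 386 Mb. The kept sequence, 353 Mb, was cut into 352591 bins of 1 kb, which are 14.7% of all bins of these chromosomes. Of the 452 deserts, 451 held at least 1 bin and 446 held 200 bins or more, and these 446 were compared with each other. The 3 shortest deserts were 501, 502 and 503 kb long, and the 3 longest intervals that missed the length were 499.9, 499.7 and 498 kb. Their median length was 724 kb, 104 reached 1 Mb and 7 reached 2 Mb. A protein-coding gene stood at 394 of the 904 ends, a small RNA gene such as U6 or SNORA17 at 367, a pseudogene at 101 and a lincRNA or processed transcript at 42.

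The 4 libraries were made from untreated mouse embryonic stem (mES) cells of the E14 line, strain 129P2/OlaHsd, at passage 25-30, grown without feeder cells for the last passages before use. They were H3K9ac chromatin immunoprecipitated with the Abcam rabbit polyclonal antibody ab4441, H3K14ac with the mouse monoclonal antibody 13HH3, H3K14ac with the mouse monoclonal antibody 7G8, and input DNA without antibody. Each group held 1 library of 1 cell line, so no difference between libraries had a replicate check and no test was made. Intervals in brackets are exact 95% intervals for counting error alone. Those of shares of bins treat each bin as independent, though high bins often touched or lay in the same desert.

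Acetylation of lysines 9 and 14 of histone H3 neutralises the charge of the histone tail and is found at the promoters and enhancers of active genes. Gene deserts are mostly AT-rich and replicate late, but some hold enhancers that act on a distant gene, often a regulator of development. The Sox2 gene, needed for pluripotency, is known for such a cluster of distal enhancers in mES cells.

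The libraries held 23183487 (H3K9ac), 21626965 (13HH3), 23839094 (7G8) and 19313927 (input) tags, of which 6.51%, 8.63%, 10.9% and 10.3% fell in deserts. Levels given as scaled tags are per 10000000 tags of the library, and all other tag numbers are unscaled. H3K9ac over input within 2 kb of the start site was above input for 8 of 9 embryonic stem cell markers (Esrrb was the exception), with a median log2 of 2.57. It was above input for 3 of 8 fibroblast markers (Col1a1, Col1a2 and Thy1; range of all 8, -0.76 to 1.01), for 2 of 4 endoderm markers and for both neural markers that could be matched. The input library stood apart in steps along some chromosomes. In the desert from Nox3 to U6 on chromosome 17, input reached 32.1 scaled tags per kb over the first 560 kb and 4.26 over the rest, while H3K9ac stayed at 2.38 and 2.43, 13HH3 at 3.21 and 3.72, and 7G8 at 3.66 and 4.08. In 12 of the 446 deserts input was more than 2 times its median, and the ratios over all deserts, by GC content, by CpG number and by distance are therefore also given without the Nox3 to U6 desert or without these 12. The labels give the same cell line for all 4 libraries. Whether the input DNA differed from that of the antibody libraries in cells or preparation was not tested, and such a difference would enter every ratio over input.

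The sites at which H3K9ac was highest in deserts are shown first, since the accounts of single deserts turn on them. A site was a run of touching 1 kb bins with 40 or more H3K9ac tags, and below are the 200 bp with the most H3K9ac tags in each of 5 of the 6 sites with the largest excess of H3K9ac over scaled input (mm9, plus strand). They lay at chr12:111187621-111187820, chr13:44800561-44800760, chr16:9133671-9133870, chr3:21834401-21834600 and chr9:16306251-16306450, in this order, all between genes. None of the 5 sequences held a match to any of the 5 short motifs described at the end, on either strand, so no letters are in capitals.
Mirg to Dio3os site: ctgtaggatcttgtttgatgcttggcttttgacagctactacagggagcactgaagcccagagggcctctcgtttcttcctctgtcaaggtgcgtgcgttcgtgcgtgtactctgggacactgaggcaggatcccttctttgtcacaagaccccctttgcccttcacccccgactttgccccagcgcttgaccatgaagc
Gm5083 to Jarid2 site: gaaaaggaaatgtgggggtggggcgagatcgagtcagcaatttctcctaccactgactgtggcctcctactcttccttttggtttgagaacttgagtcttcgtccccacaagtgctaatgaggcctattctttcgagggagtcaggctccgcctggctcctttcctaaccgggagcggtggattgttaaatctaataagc
Gm17697 to Grin2a site: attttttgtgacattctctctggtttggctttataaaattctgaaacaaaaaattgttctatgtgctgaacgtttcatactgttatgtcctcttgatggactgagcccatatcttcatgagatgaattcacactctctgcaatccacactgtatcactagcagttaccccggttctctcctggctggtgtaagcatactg
Gm7488 to Tbl1xr1 site: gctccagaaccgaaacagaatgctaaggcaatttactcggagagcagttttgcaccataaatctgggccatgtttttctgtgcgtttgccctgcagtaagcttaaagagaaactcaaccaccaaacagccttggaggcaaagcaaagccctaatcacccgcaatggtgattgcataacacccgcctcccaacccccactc
Fat3 to Gm5611 site: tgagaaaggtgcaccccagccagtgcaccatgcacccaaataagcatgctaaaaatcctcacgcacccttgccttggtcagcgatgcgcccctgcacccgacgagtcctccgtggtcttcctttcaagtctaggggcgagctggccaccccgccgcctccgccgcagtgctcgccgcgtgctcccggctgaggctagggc
GC content of the 5 sequences was 55.5%, 51%, 40%, 49.5% and 64.5%, and they held 7, 7, 2, 5 and 15 CpGs. The Mirg to Dio3os sequence held 43 H3K9ac, 32 13HH3, 13 7G8 and 4 input tags. The other 4 held 24 to 31 H3K9ac, 3 to 10 13HH3, 5 to 11 7G8 and 0 to 3 input tags. All 5 stretches were chosen for their H3K9ac tags.

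Over all desert bins H3K9ac was lowest of the 3 antibodies and 7G8 highest. The level was 1.85 scaled tags per kb for H3K9ac, 2.45 for 13HH3, 3.08 for 7G8 and 2.94 for input. H3K9ac was 0.630 times input (0.628 to 0.631), 13HH3 0.834 times (0.832 to 0.835) and 7G8 1.05 times (1.049 to 1.053). The antibodies to the same residue, 13HH3 and 7G8, thus lay on different sides of input. The level of 7G8 was 1.26 times that of 13HH3, and 13HH3 was 1.32 times H3K9ac (1.32 to 1.33), a comparison that does not use the input library. It still rests on scaling each library by its own tags. The log2 of 13HH3 over H3K9ac ran from 0.26 to 0.41 under the alternatives described at the end. Without the Nox3 to U6 desert the ratios to input were 0.639, 0.846 and 1.07.

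The deserts were compared with 536484 bins of shorter intergenic intervals that also lay 20 kb or more from a gene, and with 1025003 bins touching a gene. In the shorter intervals H3K9ac was 0.748 times input, 13HH3 0.944 and 7G8 1.01. In bins touching a gene they were 1.19, 1.08 and 0.992. Over input, the rise from deserts to genes was thus steepest for H3K9ac, smaller for 13HH3, and reversed for 7G8. The levels as such kept this order of the antibodies, but all of them, 7G8 included, were lower in deserts than at genes. H3K9ac in deserts was 0.332 times its level in bins touching a gene, 13HH3 0.485 times, 7G8 0.663 times and input itself 0.626 times. The level of 13HH3 was 1.26 times that of H3K9ac in the shorter intervals and 0.906 times in bins touching a gene, against 1.32 in deserts.

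Base composition moved with these values. Desert bins were 38.6% GC with 5.66 CpGs per kb, against 41.1% and 7.27 in the shorter intervals and 43.2% and 10.2 in bins touching a gene. Within the deserts, 13HH3 over input rose from 0.590 in bins under 30% GC to 1.22 in bins of 52% or more. 7G8 over input moved the other way, from 1.21 to 0.932, with its lowest value, 0.905, at 50 to 52% GC. H3K9ac fell from 0.871 under 30% GC to 0.577 at 42 to 44% and rose to 1.01 at 52% or more. The ratio of 13HH3 to H3K9ac in deserts went from 0.677 to 1.68 at 46 to 48% GC and back to 1.21. Without the 12 deserts of high input the ends were 0.591 and 1.29 for 13HH3 and 1.21 and 0.990 for 7G8, whose lowest value was then 0.969 at 48 to 50% GC, and the lowest value of H3K9ac was 0.601 at 42 to 44%.

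**Figure D1:**
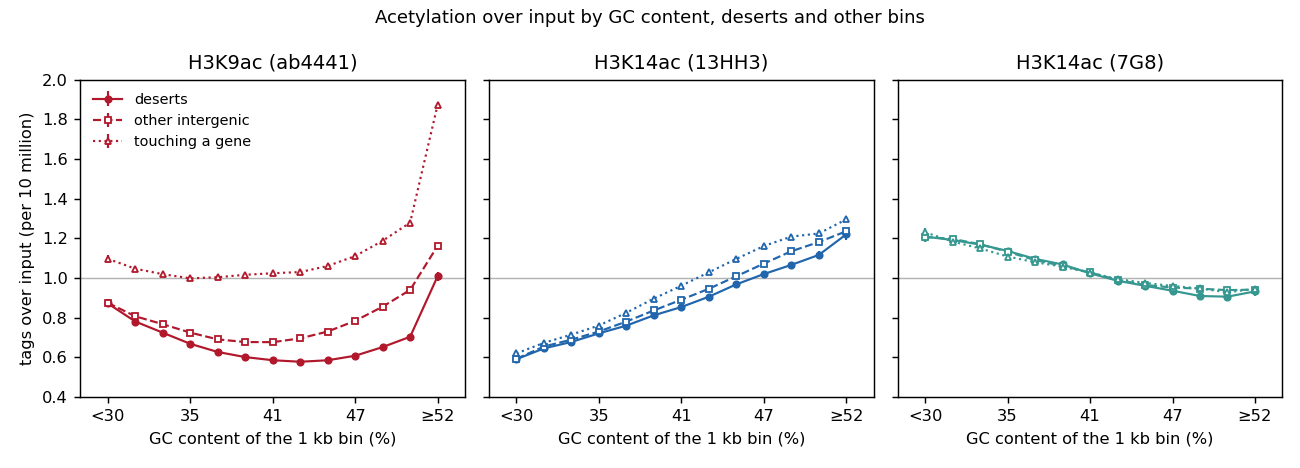
Scaled tags over scaled input by GC content of the 1 kb bin, for H3K9ac, H3K14ac with 13HH3 and H3K14ac with 7G8; filled circles are deserts, squares other intergenic bins 20 kb or more from a gene, triangles bins touching a gene, and bars exact 95% counting intervals, mostly smaller than the symbols. In deserts H3K9ac has its lowest value, 0.577, at 42 to 44% GC, while 13HH3 climbs from 0.590 to 1.22 and 7G8 has nearly the same values in the 3 kinds of bin.

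At the same GC content H3K9ac over input was lower in deserts than in the shorter intervals in every class from 30% GC up, while under 30% the values, 0.871 (0.858 to 0.885) and 0.874 (0.856 to 0.893), were within each other's intervals. At 42 to 44% GC H3K9ac over input was 0.577 in deserts, 0.695 in the shorter intervals and 1.03 in bins touching a gene. In the same class 13HH3 was 0.905, 0.945 and 1.03, and 7G8 was 0.986, 0.990 and 0.994. Without the 12 deserts of high input the desert values of this class were 0.601, 0.945 and 1.03. The shorter intervals kept all their bins, including any of high input, so these values are not a like comparison with them. Leaving out deserts for their high input raises the desert ratio by construction. With the GC classes of the shorter intervals weighted as in deserts, the desert level was 0.815 times theirs for H3K9ac, 0.897 for 13HH3, 0.944 for 7G8 and 0.941 for input. Relative to input these were 0.867, 0.954 and 1.00. On the log2 scale they were -0.21, -0.07 and 0.0049, and with the 12 deserts left out on the desert side alone -0.16, -0.03 and 0.05. Against bins touching a gene, weighted alike, they were 0.5999, 0.889 and 1.01. Differences in mappability or copy number between the kinds of bin were not tested.

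CpG number at 1 GC content was followed in desert bins of 38 to 42% GC. H3K9ac over input was 0.597 in the 16240 bins with 0 to 2 CpGs, 0.581 with 6 to 8 and 0.704 (0.679 to 0.730) in the 1144 bins with 16 or more. 7G8 over input fell through the same classes, from 1.12 to 1.02 to 0.851 (0.823 to 0.881). 13HH3 had no single direction, with 0.864, 0.831, 0.814, 0.822, 0.853 and 0.787 over the 6 classes from the fewest to the most CpGs. Without the 12 deserts of high input H3K9ac ran from 0.606 to 0.761 between the end classes, 7G8 from 1.14 to 0.923 and 13HH3 from 0.876 to 0.849. The mean GC content of these classes ran only from 39.7% to 40.5%.

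Single deserts differed from each other by more than counting error. Among the 446, H3K9ac over input had a median log2 of -0.59 and ran from -3.07 to 0.32, 13HH3 had a median of -0.22 and ran from -2.56 to 0.57, and 7G8 had a median of 0.15 and ran from -2.40 to 0.69. The ends of these ranges depended on which deserts were taken. Without the 12 deserts of high input the lowest were -1.88, -1.99 and -1.47, in deserts of 1 Mb or more they were -1.31, -0.81 and -0.30, and with intervals between protein-coding genes alone the highest were 0.96, 1.15 and 1.47. The interval lay below input in 441 deserts for H3K9ac, 332 for 13HH3 and 109 for 7G8, and above it in 3, 47 and 280. The order 7G8, 13HH3, H3K9ac held in 408. The log2 ratio of 13HH3 to H3K9ac had a median of 0.37, its interval lay above 0 in 441 deserts and below 0 in none of the 446. No such counts were made for stretches outside deserts, so they are not particular to deserts. The shorter intervals as a whole were at 0.748, 0.944 and 1.01 times input, and 13HH3 was 1.26 times H3K9ac there. Across the 446 deserts the first and last parts of each had a Pearson r of 0.785 for H3K9ac, 0.827 for 13HH3 and 0.829 for 7G8, points that share the input library and the desert's base composition.

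The steps of the input library entered these ranges. By chromosome, desert H3K9ac over input ran from 0.393 on chromosome 17 to 0.770 on chromosome 13, but the whole chromosomes themselves ran from 0.819 on 17 to 1.19 on 8. Divided by the ratio of its own chromosome, desert H3K9ac ran from 0.480 to 0.716, 13HH3 from 0.665 to 0.870 and 7G8 from 0.887 to 1.12, with the lowest on chromosome 17 each time. Chromosome 17 holds the Nox3 to U6 desert, and its values are not given without it. The next lowest were chromosome 11 for H3K9ac (0.481) and 13HH3 (0.702) and chromosome 18 for 7G8 (0.988). Each desert was then set against the bins outside deserts within 2 Mb of its ends. These flanks included bins touching genes and were not weighted by GC content, so lower values in deserts do not set deserts apart from other intergenic sequence. Relative to these flanks the median log2 was -0.45 for H3K9ac, -0.20 for 13HH3 and 0.02 for 7G8. H3K9ac was below its flanks in 409 of 446 deserts, 13HH3 in 402 and 7G8 in 191.

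**Figure D2:**
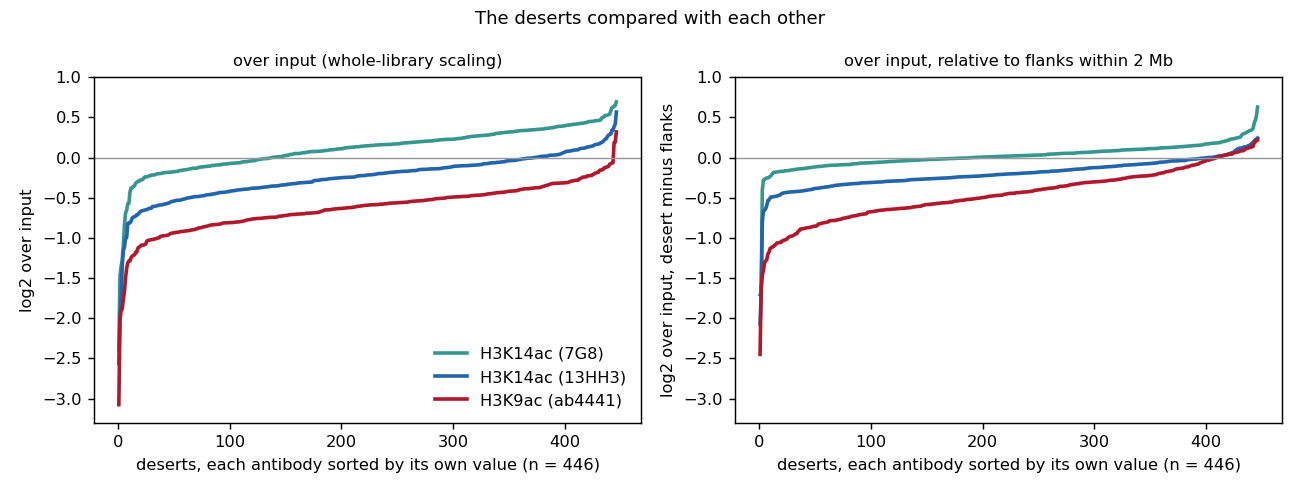
Log2 of each antibody over input in the 446 deserts with 200 bins or more, each antibody sorted by its own value; on the left scaled by the whole library, on the right minus the same value in the bins outside deserts within 2 Mb. The median lies at -0.59, -0.22 and 0.15 on the left and at -0.45, -0.20 and 0.02 on the right for H3K9ac, 13HH3 and 7G8, and a few deserts with high input form the tail at the lower left.

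The desert with the highest H3K9ac over input lay from Gm5083 to Jarid2 on chromosome 13 (44220549 to 44824842). Jarid2 is a subunit of the Polycomb complex PRC2 in mES cells. It held 12.6 H3K9ac, 13.9 13HH3, 12.8 7G8 and 8.39 input tags per kb, a log2 over input of 0.32 (0.27 to 0.37) for H3K9ac, 0.57 for 13HH3 and 0.31 for 7G8. It was also the desert highest in 13HH3 over input. It was followed by the desert from Sox2ot to U6 on chromosome 3 (34581542 to 35634294), with 9.92, 10.6, 10.6 and 7.24 tags per kb and log2 values of 0.19 (0.15 to 0.23), 0.39 and 0.24. In these 2 deserts all 3 antibodies lay above input.

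The third, from Gm5185 to U6 on chromosome 12, was of another kind. It had 4.01 H3K9ac, 3.74 13HH3 and 5.65 7G8 tags per kb, near or below the medians of the 446 (4.02, 4.85 and 7.23), but only 2.94 input tags per kb against a median of 5.27. Its log2 of 0.19 for H3K9ac became -0.16 against its flanks, where input was also low. The next 3, from U6 to Fscb, SNORA17 to Rpl10l and U2 to n-R5s61, were all on chromosome 12, had log2 values of -0.07, -0.07 and -0.08 and moved to -0.41, -0.35 and -0.56 against their flanks. The rest of the highest 10 were Gm17697 to Grin2a (-0.08), Pcsk1 to Gm4149 (-0.11), Mirg to Dio3os (-0.12) and Mir1196 to Dleu7 (-0.12). Against its flanks only the Jarid2 desert among these 10 was above 0, at 0.08, with the Sox2 desert at -0.01. Among all 446 deserts 37 were above their flanks, up to 0.22, so the Jarid2 desert was not the highest by that measure.

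The 5 deserts highest in 13HH3 were those of Jarid2 (0.57), Gm17697 to Grin2a (0.41), Sox2ot to U6 (0.39), n-R5s61 to Gm15571 (0.34) and Mir1196 to Dleu7 (0.34). The 5 highest in 7G8 were U6 to AC124193.1 on chromosome 16 (0.69), and 4 deserts of chromosome 12. The latter were U6 to Fscb (0.65), Gm5185 to U6 (0.64), Gm9726 to U7 (0.62) and Gm2228 to U1 (0.62). Chromosome 12 had the lowest desert input of any chromosome, 2.44 scaled tags per kb. As a whole it was 1.24 times input for 7G8, the highest of any chromosome. Both lists are by the ratio over input alone and not against flanks. None of the 5 highest in 7G8 held a bin of high H3K9ac, but only 65 of the 446 deserts, 14.6%, did. GC content was 36.5% to 37.5% in these 5, against 41.2% to 45.2% for the 5 highest in 13HH3.

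Of the 5 deserts lowest in H3K9ac over input, 4 had high input and 1 had few tags in all antibody libraries. From Nox3 to U6 (-3.07), Slc8a1 to SNORA17 (-2.03), Gm6594 to Pkdcc (-1.90) and Fgf9 to SNORA17 (-1.77), input was 39.1, 14.5, 15.6 and 17.8 tags per kb, while H3K9ac was 5.57, 4.25, 5.03 and 6.27, above the median desert. From Gm7367 to Gm10297 on chromosome 7 (-1.88) H3K9ac was 1.08, 13HH3 0.937 and 7G8 1.48 tags per kb, the lowest of the 446 for each, with 3.32 for input. The longest desert by its ends, Gm5591 to Gm16387 on chromosome 7, kept 159 kb of its 7199 kb after runs of undetermined bases and was not ranked. The next 2, Olfm4 to U1 on chromosome 14 and Y_RNA to Cdc73 on chromosome 1, were 2362 and 2235 kb long and had no high bin, with log2 values for H3K9ac of -0.67 and -0.93.

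Bins of high H3K9ac, with 40 or more tags, were rare in deserts. They made up 145 of 352591 bins, 0.0411% (0.0347 to 0.0484), against 2.51% of all bins of the 19 chromosomes, 0.496% of the shorter intergenic intervals and 4.48% of bins touching a gene. The share was 12.1 times higher in the shorter intervals than in deserts and 5.12 times higher after weighting by GC content. For 13HH3 it was 0.0201% in deserts against 0.495% of all bins, and for 7G8 0.0130% against 0.218%. For input it was 0.121% against 0.0841%, but 409 of the 426 high input bins in deserts lay in the Nox3 to U6 desert. The share in deserts was higher at higher GC content, from 0.00934% at 38 to 40% to 1.98% at 52% or more, where it was 8.33% in the shorter intervals.

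The 145 bins formed 113 sites in 65 deserts, and 387 deserts held none. In 43 deserts there was exactly 1 such bin, while Sox2ot to U6 held 24, Gm5083 to Jarid2 18, Mirg to Dio3os 9 and Gm17697 to Grin2a 6. The first 2 together held 28.97% of all. The sites had a median GC content of 48.5% and a median of 17.0 CpGs per kb, and lay a median of 104 kb from the nearest gene and 159 kb from the nearest protein-coding start site. Of the sites 92 were 1 kb long, and the longest was 6 kb.

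The H3K14ac libraries took no part in choosing the sites. In the 145 bins 13HH3 was 2.34 times input (2.21 to 2.48) and 7G8 2.02 times (1.91 to 2.14), against 0.834 and 1.05 over all desert bins. The 145 bins had a mean of 49.6% GC against 38.6% in all desert bins. Desert bins of 48 to 50% GC were at 1.07 for 13HH3 and 0.909 for 7G8. The interval of 13HH3 lay above input at 66 of 113 sites and that of 7G8 at 51, and all 3 at 46, of which the H3K9ac part was fixed by the choice of sites. By 1 kb bin, the interval lay above input in 85 of the 145 for 13HH3, 58.6% (50.2 to 66.7), against 1.23% of all desert bins and 4.54% of all bins of the 19 chromosomes. For 7G8 it was 73 of 145, 50.3% (41.9 to 58.7), against 2.36% and 3.49%. Among high H3K9ac bins of the shorter intervals it was 46.5% for 13HH3 and 41.2% for 7G8. Among those touching a gene it was 37.0% and 29.9%. The intervals of these shares treat bins as independent, though the 145 formed 113 sites and 42 lay in 2 deserts. They do not measure the spread between sites or deserts, and the shares were not matched for GC content. In bins with 40 to 49 H3K9ac tags, 13HH3 over input was 2.05 (1.88 to 2.24) in deserts, 1.83 (1.79 to 1.86) in the shorter intervals and 1.601 (1.59 to 1.61) in bins touching a gene. For 7G8 the same values were 1.85 (1.69 to 2.02), 1.62 and 1.34. In this class H3K9ac over input was itself higher in deserts, 3.32 against 2.84 in bins touching a gene, and CpG density was lower, 19.8 against 23.0 per kb. In bins with 0 to 9 H3K9ac tags, which held 94.3% of desert bins, 13HH3 over input was lower in deserts than in bins touching a gene, 0.805 against 0.883, and 7G8 was higher, 1.04 against 0.946. GC content in this class was 38.3% in deserts and 40.6% in bins touching a gene, and both ratios moved with GC content.

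**Figure D3:**
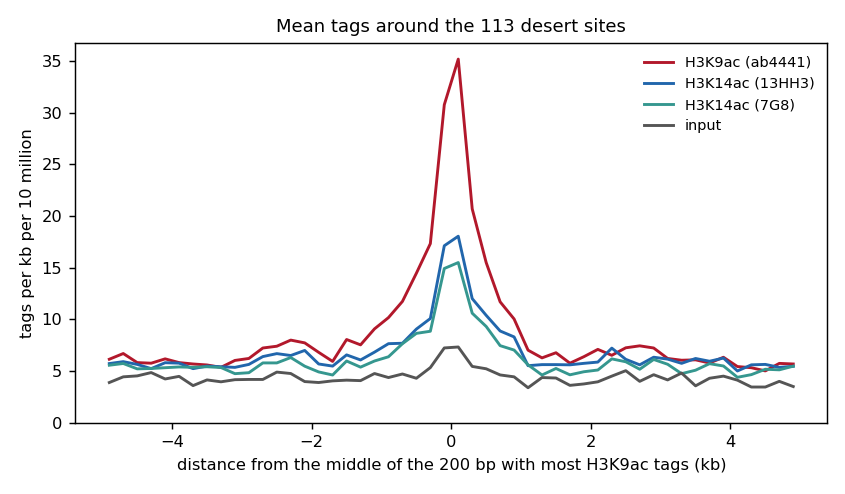
Mean scaled tags per kb around the 113 desert sites, in windows of 200 bp centred on the 200 bp with the most H3K9ac tags. Within 400 bp H3K9ac stands at 26.0, 13HH3 at 14.3, 7G8 at 12.5 and input at 6.34, and at 4 to 5 kb the values are 5.78, 5.54, 5.19 and 4.05.

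Around the sites the H3K14ac antibodies peaked where H3K9ac did. Within 400 bp of the centre 13HH3 was 2.26 times input (2.11 to 2.42) and 7G8 1.97 times (1.83 to 2.11). At 4 to 5 kb they were 1.37 and 1.28 times input, still above their values over all desert bins. Input was also higher at the centre, 6.34 against 4.05 scaled tags per kb.

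The Sox2ot to U6 desert held the highest site of all, a run of 6 kb. Sox2 encodes a transcription factor of the pluripotency network. The site held 585 H3K9ac, 253 13HH3, 229 7G8 and 40 input tags, which is 12.2, 5.65 and 4.64 times input. Of the 24 high bins 16 lay between 52.5 and 91.5 kb from the end of Sox2ot, and the last lay 1022 kb away at the other end. In windows of 10 kb H3K9ac peaked at 34.4 scaled tags per kb against a median of 3.49 along the desert, 13HH3 at 15.5 against 4.90 and 7G8 at 14.2 against 4.40, all in the window centred at 75 kb. Without bins within 5 kb of a high bin, the log2 over input of the rest was 0.26 for 13HH3 and 0.15 for 7G8. For H3K9ac, whose own tags chose the bins left out, it was -0.14 (-0.19 to -0.09).

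In the Gm5083 to Jarid2 desert the high bins lay towards Jarid2, between 21.8 and 172 kb from it, and 12 of the 18 lay between 547 and 582 kb from Gm5083. The highest site, chr13:44799001-44803000, held 306 H3K9ac, 117 13HH3, 135 7G8 and 39 input tags. The rest of this desert, without bins near a high bin, had a log2 of 0.48 (0.42 to 0.54) for 13HH3 and 0.21 (0.15 to 0.27) for 7G8. Both H3K14ac antibodies were thus above input outside the sites too. But the whole of chromosome 13 also was, at 1.14 times input for 13HH3 and 1.16 times for 7G8. The rest of the desert was not set against flanks. H3K9ac there was at 0.02 (-0.04 to 0.08), again after its own high bins were left out.

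The Mirg to Dio3os desert lies in the imprinted Dlk1-Dio3 domain, between a host gene of many microRNAs and the antisense RNA of Dio3. Its site at chr12:111185001-111189000 held 362 H3K9ac, 196 13HH3, 129 7G8 and 48 input tags, including the desert bin with the most H3K9ac tags of all, 163. The Gm17697 to Grin2a desert had 5 of its 6 high bins between 97.5 and 141 kb from Gm17697. Its highest site held 218 H3K9ac, 88 13HH3, 97 7G8 and 19 input tags at only 40.7% GC and 5.33 CpGs per kb.

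Of the other sites among the highest 10, those from Gm7488 to Tbl1xr1 and from Fat3 to Gm5611 had 198 and 178 H3K9ac tags, 7.17 and 4.63 times input. Those from AC127294.1 to Gm8935 (149 tags), Gm3944 to Gm5784 (139), Gm11986 to Gm11987 (155) and U6 to Cited2 (132) were 2 kb long and 13.8, 12.9, 4.45 and 5.50 times input. CpG density differed widely among them. It was 55 per kb in the Gm3944 to Gm5784 site and 54.3 in the Fat3 site, but 7 near Cited2 and 9 near AC127294.1.

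Of 71 desert bins with 40 or more 13HH3 tags 21 were also high in H3K9ac, 29.6%, and of 46 such bins of 7G8 22 were, 47.8%. Those are 14.5% and 15.2% of the 145 high H3K9ac bins, which made up 0.0411% of desert bins. In the shorter intervals 53.2% of 777 high 13HH3 bins and 73.6% of 387 high 7G8 bins were also high in H3K9ac, which are 15.5% and 10.7% of the high H3K9ac bins there. The bin with the most tags of either antibody, 107 for 13HH3 and 61 for 7G8, was the same, in the Sox2 desert, where H3K9ac had 140. The next for 13HH3 were 2 bins of the Mirg to Dio3os site with 96 and 71 tags. The next for 7G8 had 60 tags each, in the Gm11986 to Gm11987 desert and in a desert on chromosome 9. The 3 bins with the most input tags, 136 to 147, lay in the Nox3 to U6 desert and had 3 to 9 H3K9ac tags.

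That chromosome 9 desert lay between 2 U6 genes with 4931429L15Rik and Cadm1 as nearest coding genes (46438303 to 47333698), and held 21 of the 71 high 13HH3 bins and 10 of the 46 high 7G8 bins, the most of any desert for each, but 3 high H3K9ac bins. Cadm1 encodes a cell adhesion protein. The tags formed a broad domain. From 250 to 540 kb, limits chosen after the values were seen, 13HH3 stood at 9.45 scaled tags per kb against 5.55 in the rest of the desert, 7G8 at 9.56 against 5.23, H3K9ac at 5.85 against 3.94 and input at 6.53 against 6.28. The log2 over input there was 0.53 (0.47 to 0.59) for 13HH3 and 0.55 (0.49 to 0.61) for 7G8 but -0.16 (-0.23 to -0.10) for H3K9ac. GC content was 44.1% inside and 45.3% outside. In the rest of the desert the log2 was -0.18 for 13HH3, -0.26 for 7G8 and -0.67 (-0.73 to -0.62) for H3K9ac. All 3 antibodies, H3K9ac included, were thus higher inside the stretch than outside. H3K9ac was above input in 6 of the 29 windows of 10 kb of this stretch, and windows outside it were not counted.

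**Figure D4:**
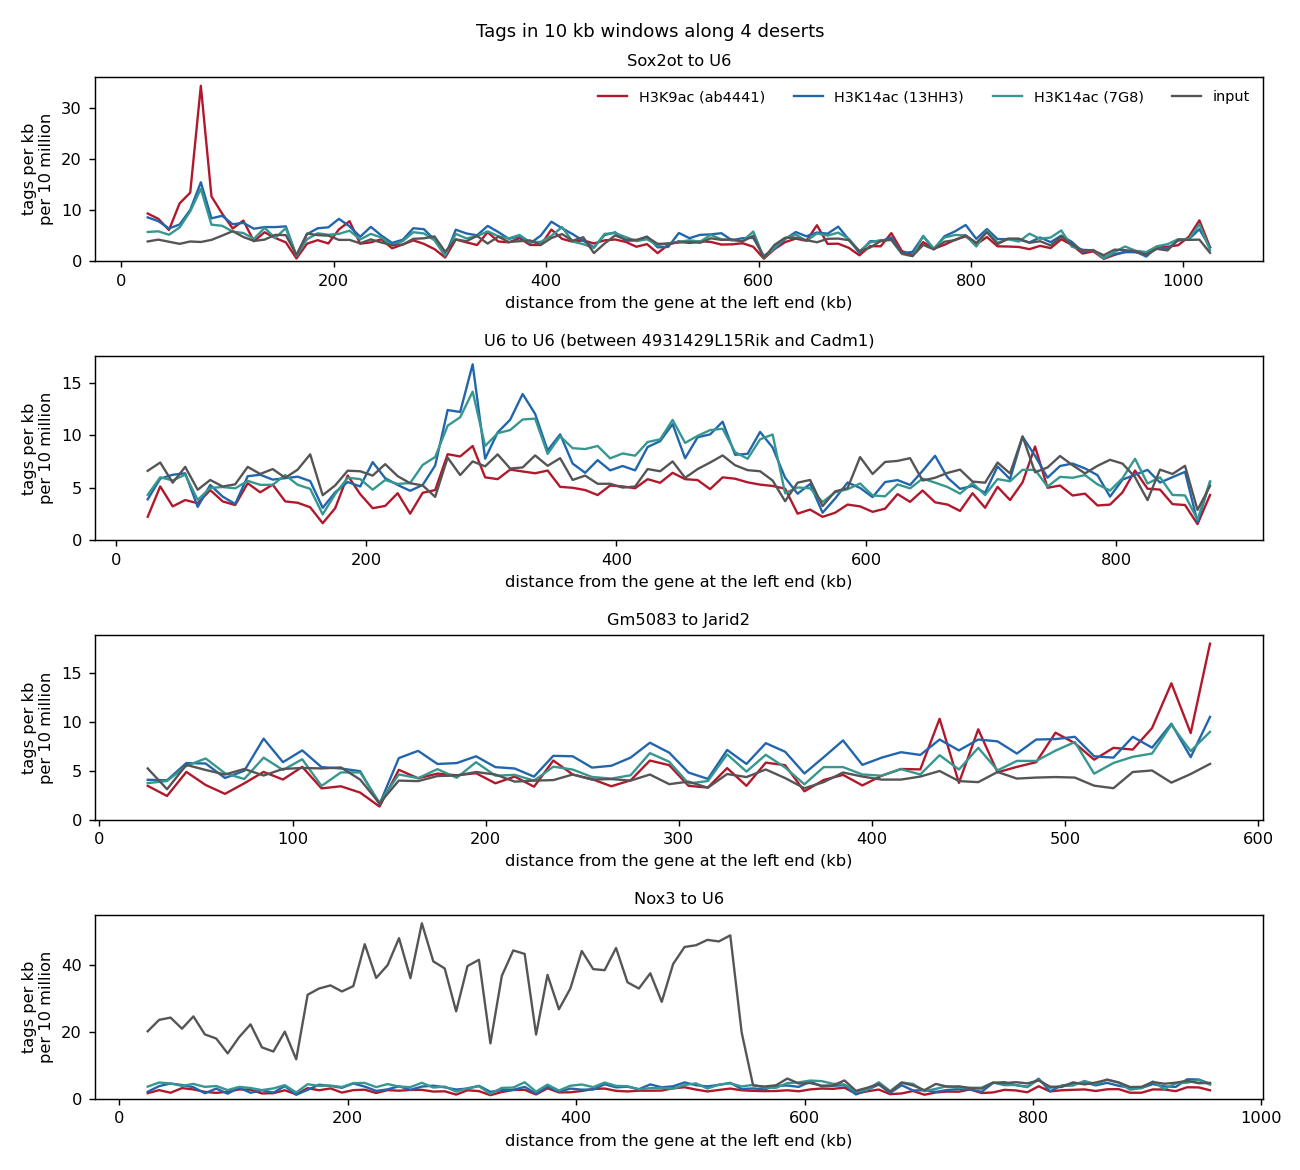
Scaled tags per kb in 10 kb windows along 4 deserts, by distance from the gene at the left end. From the top, the Sox2 desert has its highest H3K9ac window, 34.4, at 75 kb. The chromosome 9 desert has a domain of 13HH3 and 7G8 from 250 to 540 kb, in which H3K9ac is raised too, 5.85 against 3.94 outside. The Jarid2 desert rises towards its right end, to 17.99 for H3K9ac. In the Nox3 desert input reaches 52.5 while the highest antibody window is 6.01.

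The share of high bins changed more with distance from the nearest gene than the mean level did. H3K9ac over input went from 0.663 (0.658 to 0.668) at 20 to 50 kb from a gene to 0.622 (0.618 to 0.627) at 500 kb or more, 13HH3 from 0.871 to 0.802 and 7G8 from 1.03 to 1.11. A dip of all 3 at 400 to 500 kb, to 0.582, 0.756 and 1.02, was 0.625, 0.811 and 1.09 without the Nox3 to U6 desert. Without that desert H3K9ac and 13HH3 fell from each distance class to the next, and 7G8 rose except between 100 to 150 kb and 150 to 200 kb, where both values were 1.06. GC content fell with distance as well, from 39.3% to 37.3%. Relative to desert bins of the same GC content, the level at 20 to 50 kb was 1.08 for H3K9ac, 1.04 for 13HH3, 1.02 for 7G8 and 1.02 for input, and at 500 kb or more it was 0.882, 0.909, 0.939 and 0.908.

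**Figure D5:**
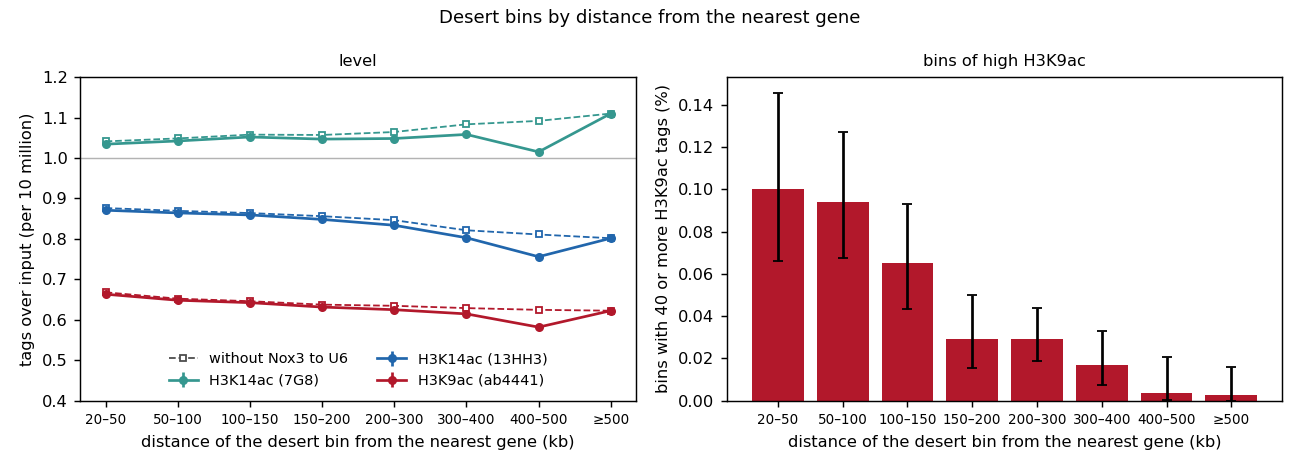
Desert bins by distance from the nearest gene of any type: on the left tags over input for the 3 antibodies, solid with all deserts and dashed without the Nox3 to U6 desert; on the right the percent of bins with 40 or more H3K9ac tags, with exact 95% counting intervals. The share falls from 0.100% at 20 to 50 kb (0.0559% without the Sox2 and Jarid2 deserts) to 0.00288% at 500 kb or more, while the H3K9ac level over input falls only from 0.663 to 0.622. The farthest class holds only deserts of 1 Mb or more, and the classes are not weighted by GC content.

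The share of high H3K9ac bins was 0.100% (0.0660 to 0.146) at 20 to 50 kb, 0.0649% at 100 to 150 kb, 0.0293% at 200 to 300 kb and 0.00288% (7.29e-05 to 0.0160) at 500 kb or more, where 1 of 34716 bins was high. Without the Sox2 and Jarid2 deserts it was 0.0559% (0.0313 to 0.0922) at 20 to 50 kb, 0.0562% at 100 to 150 kb and 0.0282% at 200 to 300 kb, and the values of the classes up to 150 kb then lay within each other's intervals. Bins 500 kb or more from a gene lie only in the 104 deserts of 1 Mb or more, so the classes hold different deserts. In those deserts the share over all bins was 0.0283%, against 0.0411% in all deserts. The shares by distance were not weighted by GC content. The parts of desert length and GC content in the fall were not tested. At 20 to 50 kb from the 178 ends at which a protein-coding gene turned its 5′ end to the desert, 13 of 5155 bins were high, 0.252%. Of these 13, all but 4 lay at the Jarid2 end, and without that desert the share was 4 of 5126, 0.0780% (0.0213 to 0.1997). At the 216 ends with a 3′ end it was 6 of 6177, 0.0971% (0.0357 to 0.211), so the difference between 5′ and 3′ ends rested on 1 desert. Next to genes of other types it was 6 of 7353 bins, 0.0816%, at 3′ ends and 2 of 7366, 0.0272%, at 5′ ends. The Sox2 desert ends at such genes and had high bins 22.5 kb from Sox2ot and 30.3 kb from U6. The shares next to genes of other types are not given without it. The mean level did not separate the kinds of end as much, with H3K9ac over input of 0.681, 0.668, 0.660 and 0.651 in the order above.

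Neighbours were sorted by their nearest protein-coding genes, since so many ends were small RNA genes. This use of the nearest coding gene was decided after the data were seen. By a protein-coding gene at the edge itself, 1 of 2 deserts next to a pluripotency gene held a high bin (18 of 1149 bins, all in the Jarid2 desert), as did 7 of 12 next to a developmental transcription factor gene (7 of 7246 bins, 0.0966%), 3 of 40 next to an adhesion or synapse gene (0.0234%) and 54 of 390 next to none of these (0.0363%). The Sox2 desert, which ends at the lincRNA Sox2ot, is among the last of these and held 24 of their 112 high bins. The counts that follow are by the nearest coding gene. Among the 446 deserts 65 held a high H3K9ac bin, 14.6%. Of 5 deserts next to a gene of the pluripotency list 3 did, with 43 of 3299 bins high, 1.30%. They were the deserts of Sox2 and Jarid2, with 24 and 18 bins, and Med13l to n-R5s175 beside Tbx3, with 1. Without the Sox2 and Jarid2 deserts 1 of 1724 bins was high, 0.0580%. The other 2, on either side of Myc, had none, and log2 values for H3K9ac of -0.54 (SNORA42 to Myc) and -0.91 (SNORA17 to U7). SNORA42 to Myc was however at 0.15 for 13HH3 and 0.52 for 7G8, and at 0.46 for 7G8 against its flanks. Of 24 deserts next to a developmental transcription factor gene 10 held a high bin, with 33 of 14967 bins high, 0.220%. The Sox2 desert, counted here too, held 24 of the 33, and without it 9 of 23 deserts held a high bin and 9 of 13955 bins were high, 0.0645% (0.0295 to 0.122). In all, 3 deserts were counted in 2 of these kinds. Of 108 deserts next to cell adhesion or synapse genes 8 did, with 0.0144% of bins high, and of 2 next to chemosensory receptors none did. Their median GC content was 42.7%, 41.9%, 37.3% and 40.9%, in this order, and the part of base composition in these shares was not tested.

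The motifs searched were ATGCAAAT (POU octamer), TTGTNATGC (the core joined by SOX and POU factors), TCAAGGTCA (ESRRB), GGGTGTG (KLF) and CACGTG (E-box), each on both strands. The joint core and the octamer can overlap. TCAAGGTCA was in 7 of the 145 high H3K9ac bins, 4.83% (1.96 to 9.69), in 1.45% of all desert bins and in 1.72% of the other desert bins of like GC content (42.6% to 58.0%). GGGTGTG was in 23.4% (16.8 to 31.2), 10.6% and 17.4%, and CACGTG in 10.3% (5.91 to 16.5), 6.30% and 8.88%. ATGCAAAT was in 8.28% (4.35 to 14.01), 11.1% and 7.58%, and TTGTNATGC in 1.38% (0.167 to 4.89), 2.92% and 2.38%. The bins of like GC content had a mean of 45.5% GC and 9.38 CpGs per kb, against 49.6% and 22.1 in the high bins, so they were not matched to them. Of the 145 high bins, 42 came from 2 deserts, and the shares are given as a description. In the shorter intergenic intervals 4.02% of 2663 high bins held TCAAGGTCA, 27.1% GGGTGTG, 17.6% (16.1 to 19.1) CACGTG, 5.82% ATGCAAAT and 2.59% TTGTNATGC. A match describes letters and no bound factor was measured here.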

How the data were processed

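Per the labels and the study's methods, gel-selected chromatin and input fragments were sequenced, with fewer PCR cycles for input, and the authors aligned 36-base tags to mm9 with ELAND, allowing 1 mismatch. The deposited files list tag positions and strands (no counts). H3K9ac, 7G8 and input held no repeated position; 738711 repeats (3.30%) of 13HH3 were removed here. Tags were moved 100 bp towards the fragment middle, counted in 1 kb bins and scaled to 10000000 tags per library. Ratios have exact conditional (Clopper-Pearson) intervals at 95%, shares exact binomial and levels exact Poisson ones, all for counting error only. Python 3.11.15, numpy 2.4.6, pandas 2.3.3 and scipy 1.17.1 were used, and the steps were tested on simulated data. Deserts, lists and motifs were chosen with earlier results of these data known. Named were the 3 longest deserts, those highest and lowest over input, the 10 highest sites, the 3 bins highest per library and neighbours on the pluripotency list. Alternatives were the shift, repeats, scaling, desert rule, bins, thresholds and thinning. Chromosomes X and Y were not analysed here. The sequence of 1 further site is not reported here.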

Additional observations from a re-analysis of the deposited data

How the results depend on the processing

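No paired analysis was possible because each group held 1 library. The direction of all 3 ratios to input was kept under every alternative run. Values that left the counting interval were as follows, for H3K9ac, 13HH3 and 7G8 in this order unless named. Scaling by the tags of chromosomes 1 to 19 gave 0.623, 0.824 and 1.04, and scaling by bins under 40 tags in every library 0.715, 0.854 and 1.07. Deserts of 1 Mb or more gave 0.632, 0.815 and 1.09. Leaving out 50 kb at each end gave 0.627 for H3K9ac and 0.830 for 13HH3. Protein-coding neighbours alone gave 0.652, 0.862 and 1.06, bins with at least 1 input tag 0.620, 0.824 and 1.04, and bins with under 20 input tags 0.646, 0.854 and 1.08. All deposited 13HH3 tags gave 0.821 for 13HH3. Chosen after seeing the data, leaving out the desert with the highest input gave 0.639, 0.846 and 1.07, leaving out the 12 with input over 2 times the median 0.649, 0.855 and 1.09, and scaling within each chromosome 0.637, 0.826 and 1.04. The shift and thinning changed no ratio beyond its interval. The log2 of 13HH3 over H3K9ac in deserts left its interval in 5 of 11 alternatives, and ran from 0.26 to 0.41.

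The share of high H3K9ac bins in deserts was 0.390% at 20 tags, 0.0119% at 60 tags, 0.00170% at 40 scaled tags (per 10000000), 0.0295% for 2 kb bins with 80 tags and 0.0241% after thinning to the shallowest library. It was 0.0283% in deserts of 1 Mb or more and 0.0759% with protein-coding neighbours alone, and 0.0293% without the Sox2 and Jarid2 deserts, an alternative chosen after seeing the data. The shares by distance, by end and by neighbour without these deserts, and the GC and CpG classes without the 12 deserts, given beside their values, were also chosen after seeing the data. The causes of these moves were not tested beyond the construction of each alternative. The log2 difference of deserts from shorter intervals at the same GC content ran from -0.26 to -0.16 for H3K9ac, from -0.07 to -0.03 for 13HH3 and from 0.00 to 0.05 for 7G8. The ends of -0.16, -0.03 and 0.05 came from leaving out the 12 deserts on the desert side alone. With 1 library per antibody, differences between antibody, preparation and run cannot be told apart, and depth limits bins of few tags.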
